A study of Mus musculus with 8 samples.

Results

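The genes described here are 9 tendon factors and matricellular proteins of the mouse trachea: Scx, Mkx, Tnmd, Thbs1, Thbs2, Thbs4, Tnc, Tnn and Postn. They were taken by symbol from the count tables of both stages, where each had 1 entry per table, and are 9 of 37282 gene symbols. The rule goes by symbol and uses no measured value, but the list was drawn up with earlier results of these data known. RNA sequencing was done on whole tracheae dissected from mouse embryos, with 2 libraries in each of 4 groups: WlsShhCre at stage E13.5 (E counts embryonic days), control at E13.5, WlsShhCre at E11.5 and control at E11.5. The labels give WlsShhCre as the genotype and the series is about deletion of Wls; the alleles of the controls, any animal pooling and the embryos behind each replicate number are not given in the sources used here, so p-values measure the spread between these libraries, which may be technical. Wls encodes Wntless, a carrier that cells need to secrete Wnt ligands, and Shh-Cre acts in cells that express Sonic hedgehog, which in the trachea are epithelial; the genes described here are mostly made by the mesenchyme around it.

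Scleraxis (Scx) is a basic helix-loop-helix transcription factor that marks tendon and ligament progenitors, and Mohawk (Mkx) is a homeodomain factor needed for tendon collagen. Tenomodulin (Tnmd) is a membrane protein of mature tendon cells whose expression depends on Scx in limb tendons of the mouse. The matricellular proteins are secreted into the matrix and modulate how cells contact it rather than bear load: the thrombospondins Thbs1, Thbs2 and Thbs4, the tenascins Tnc and Tnn (tenascin W), and periostin (Postn). Thbs1 activates latent TGF-beta, Thbs2 affects collagen fibril assembly, Thbs4 is found at the junctions of muscle and tendon, and Postn is a ligand of alpha-v integrins made by fibroblasts and periosteum. Because whole tissue was sequenced, fewer cells of a type and less RNA per cell cannot be told apart.

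Scx and other basic helix-loop-helix factors bind the E-box CANNTG, so the promoters of the members whose levels differed most between genotypes at E13.5 are shown, from 250 bases before to 50 after the start of transcription. They are RefSeq sequences in build GRCm38.p6, 5′ to 3′ along the gene, with each CANNTG in capitals. The count tables used mm9 and give no coordinates. The promoter set gave a printable entry for 6 of the 9 members. Postn had more than 1 start there and the one nearest annotated transcript starts is given. Tnc had an entry but could not be tested between genotypes, so it is not shown. Its window nearest annotated transcript starts held 3 CANNTG.
Tnmd, chrX:133850758-133851057, plus strand: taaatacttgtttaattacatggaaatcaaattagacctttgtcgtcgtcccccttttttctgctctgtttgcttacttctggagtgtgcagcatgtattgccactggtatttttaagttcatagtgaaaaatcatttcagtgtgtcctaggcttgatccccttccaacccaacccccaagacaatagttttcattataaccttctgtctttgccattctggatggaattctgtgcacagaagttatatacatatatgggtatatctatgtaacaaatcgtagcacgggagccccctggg
Tnn, chr1:160153526-160153825, minus strand: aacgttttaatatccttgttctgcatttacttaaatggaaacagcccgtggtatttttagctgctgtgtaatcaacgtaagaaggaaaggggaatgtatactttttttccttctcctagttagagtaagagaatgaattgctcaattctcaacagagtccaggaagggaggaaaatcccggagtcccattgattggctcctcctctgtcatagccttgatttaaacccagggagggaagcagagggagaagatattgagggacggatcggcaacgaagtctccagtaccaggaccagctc
Thbs4, chr13:92794769-92795068, minus strand: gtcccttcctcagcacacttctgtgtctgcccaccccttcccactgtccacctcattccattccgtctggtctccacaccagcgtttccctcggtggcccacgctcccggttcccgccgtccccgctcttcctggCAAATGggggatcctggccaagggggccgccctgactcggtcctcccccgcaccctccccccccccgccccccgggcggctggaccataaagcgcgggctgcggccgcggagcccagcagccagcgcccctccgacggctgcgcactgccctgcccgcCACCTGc
Thbs2, chr17:14694213-14694512, minus strand: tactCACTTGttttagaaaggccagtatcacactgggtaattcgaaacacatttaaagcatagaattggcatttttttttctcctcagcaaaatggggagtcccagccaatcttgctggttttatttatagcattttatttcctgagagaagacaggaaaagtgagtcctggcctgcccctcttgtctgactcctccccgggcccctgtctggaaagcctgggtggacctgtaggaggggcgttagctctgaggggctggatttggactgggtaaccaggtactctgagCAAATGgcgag
Postn, chr3:54360857-54361156, plus strand: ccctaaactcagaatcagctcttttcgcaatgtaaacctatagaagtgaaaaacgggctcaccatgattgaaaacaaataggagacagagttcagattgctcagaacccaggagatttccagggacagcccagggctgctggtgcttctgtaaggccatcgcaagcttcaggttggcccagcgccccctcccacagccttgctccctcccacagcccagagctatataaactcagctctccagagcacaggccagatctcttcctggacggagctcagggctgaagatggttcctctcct
The Thbs2 promoter held CACTTG and CAAATG, and the Thbs4 promoter held CAAATG and CACCTG, which makes 2 E-boxes in each. No CANNTG lay in these windows of Tnmd, Tnn and Postn. CANNTG reads the same on both strands and was present in 72.3% of 32544 mouse promoters of this length. The motif CTTTGA, or TCAAAG on the other strand, a core of sites bound by the Wnt effectors TCF and LEF, was in 16.0% of those promoters and in none of the windows shown. These matches describe letters only.

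Levels are CPM, read counts scaled to a common library size, with the library totals adjusted by TMM factors. Differential expression was tested with edgeR's quasi-likelihood test on all 8 libraries, adjusted p is the Benjamini-Hochberg value over the 14901 genes tested, and a gene is called at an adjusted p under 0.05. Total counts were 9.9 M to 18.48 M per library, and both E13.5 WlsShhCre libraries were deeper than the other 6. Wls was at 73.9 and 71.7 CPM in E13.5 WlsShhCre tracheae, against 168 and 158 CPM in E13.5 controls, and at 118 and 109 CPM in E11.5 WlsShhCre tracheae, against 155 and 164 CPM in E11.5 controls. It was lower in the mutants at both stages, with log2 fold changes of -1.16 (SE 0.06, adjusted p = 1.46e-07) at E13.5 and -0.49 (SE 0.06, adjusted p = 0.00302) at E11.5. One library stands apart: E13.5 WlsShhCre replicate 1 held 824.2 CPM of 10 skeletal muscle genes and 6.34 CPM of Xist, the RNA of the inactive X chromosome, while the 7 other libraries held 91.96 to 400.7 CPM and 526 to 2670 CPM. Results that this library carries are given with and without it.

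Between genotypes at E13.5 the members split by direction. Tnmd, Tnn and Thbs4 rose in WlsShhCre tracheae, Thbs1 and Thbs2 fell, and Postn, Scx and Mkx were not called; 3 of the 8 members tested were higher and 2 lower. Over all genes tested the same call was made for 11.8%, in 5.97% as higher and in 5.81% as lower. Tnc could not be tested. Without E13.5 WlsShhCre replicate 1 5 members were called. The libraries of the genotypes did not overlap for 6 of the 8, against 54.5% of all genes, and the members' median log2 fold change was 0.43, against 0 for all genes. Tnn passed the filter on low counts, 0.893 CPM, in every E13.5 library and in no E11.5 library. Tnmd passed it in both E13.5 WlsShhCre libraries, in 1 E13.5 control and in no E11.5 library. As the filter asks for 2 libraries, Tnmd was tested only through the mutants. Its higher call is therefore tied to the filter, and it counts among the 3 higher, among the 6 that did not overlap and in the median. With no filter on low counts edgeR called it too (adjusted p = 0.00249). At E11.5, 1 member of 8 was called, Thbs2 as lower, where 0.362% of all genes were called, 0.0738% as higher and 0.289% as lower. In CPM, 5 members did not overlap between genotypes, against 36% of all genes; Tnmd is 1 of the 5 only through library size, since a mutant and a control library each held 1 count.

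**Figure D1:**
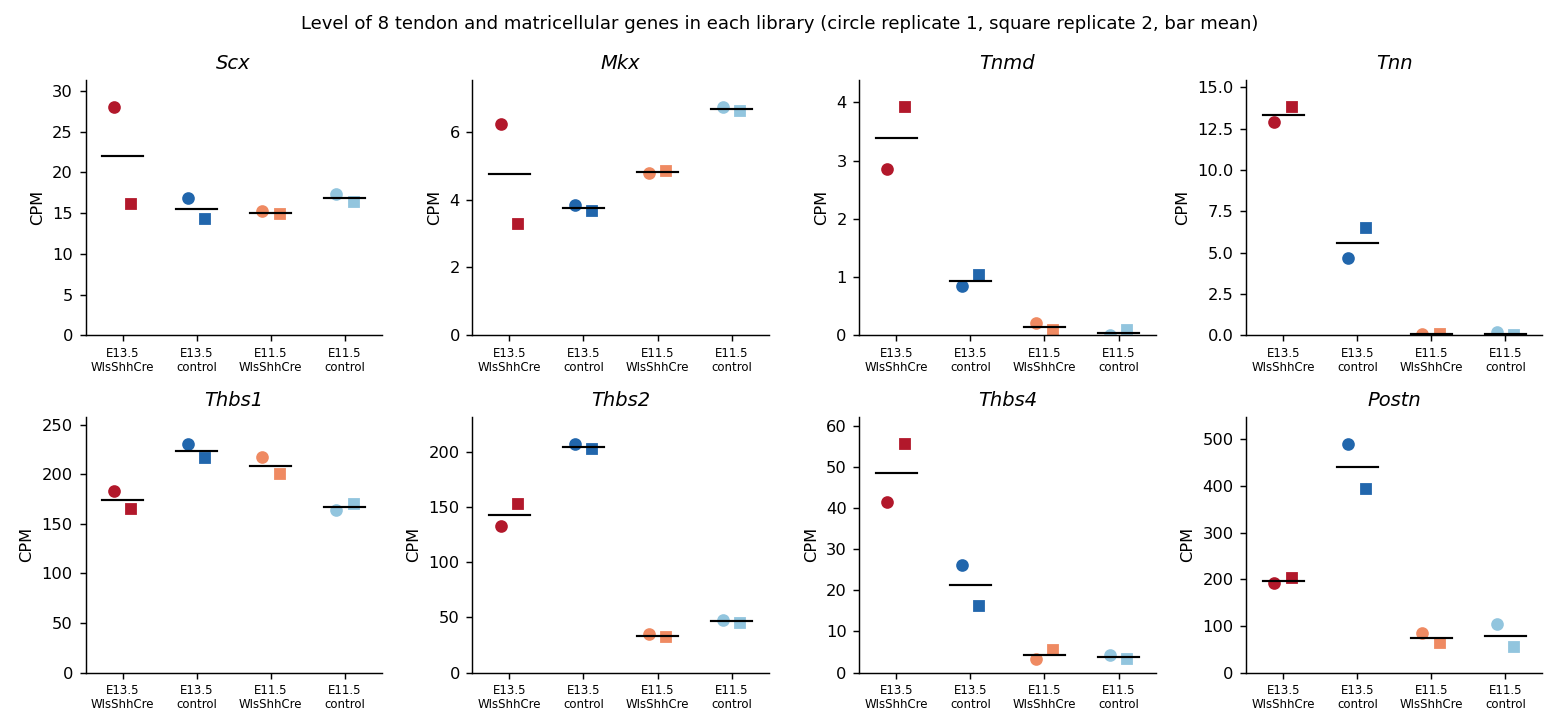
Level of each detected member, in CPM, in the 8 libraries, with 1 point per library and groups from left to right E13.5 WlsShhCre, E13.5 control, E11.5 WlsShhCre and E11.5 control. Tnmd, Tnn and Thbs4 are highest in the E13.5 WlsShhCre libraries, and Thbs2 and Postn are highest in the E13.5 controls.

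**Figure D2:**
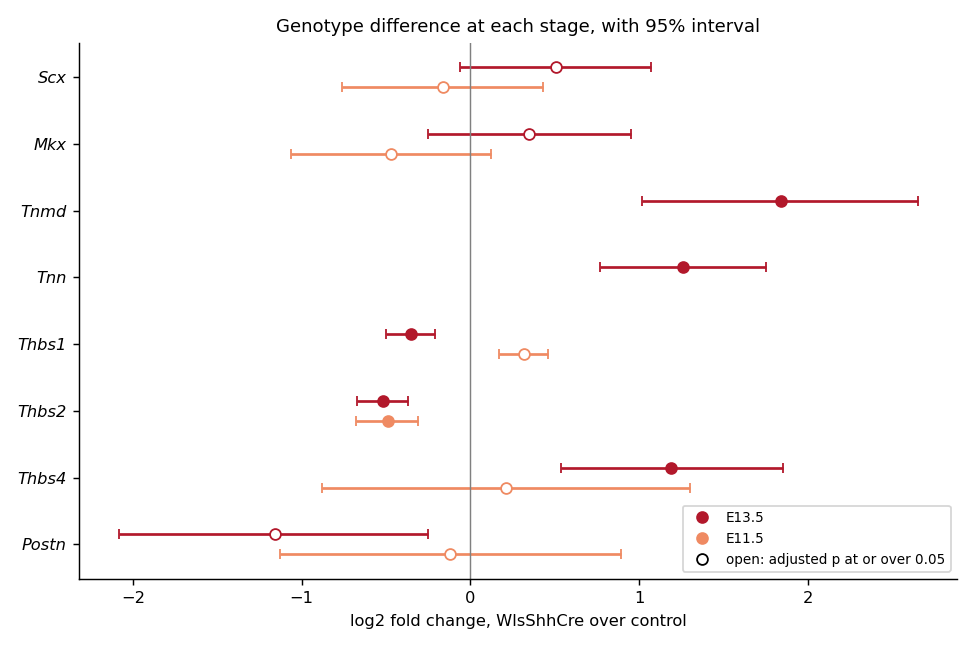
Log2 fold change of WlsShhCre over control for each member at E13.5 and E11.5, with 95% confidence intervals from the edgeR fit; Tnmd and Tnn are left out at E11.5, where both groups held at most 3 counts. At E13.5 Tnmd, Tnn and Thbs4 lie above 0 and Thbs1, Thbs2 and Postn below it.

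Neither of the transcription factors of tendon progenitors was called between genotypes at E13.5. Scx was at 28 and 16.1 CPM in E13.5 WlsShhCre tracheae, against 16.8 and 14.3 CPM in E13.5 controls. The groups overlap, and only replicate 1 of the mutants lies above both controls. The log2 fold change was 0.51 (SE 0.24, adjusted p = 0.262); without mutant replicate 1 it was 0.05 (adjusted p = 0.92), and without mutant replicate 2 it was 0.85 (adjusted p = 0.000909). Mkx was at 6.23 and 3.28 CPM in E13.5 WlsShhCre tracheae, against 3.84 and 3.66 CPM in E13.5 controls. Again replicate 1 of the mutants is above both controls and replicate 2 below both, so the groups overlap. The log2 fold change was 0.35 (SE 0.28, adjusted p = 0.504), and -0.19 (adjusted p = 0.792) without mutant replicate 1.

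Skeletal muscle genes differed between the same libraries. Their summed level was 824.2 and 349.1 CPM in E13.5 WlsShhCre tracheae, against 400.7 and 289.3 CPM in E13.5 controls, with all 10 genes detected in every library. None of the 10 was called between genotypes at E13.5, and 6 had an unadjusted p under 0.05. Myod1, a factor that commits cells to muscle, was at 30.1 and 11.4 CPM in these mutants, against 5.71 and 6 CPM in controls. The genes of the list did not all move alike. Ttn, Actn2 and Des overlapped between genotypes, and the rest were higher in both mutants than in both controls. Ttn was at 176 and 59 CPM in these mutants, against 161 and 79.8 CPM in controls. Des is also among the smooth muscle genes given below. The part of muscle tissue in the Scx and Mkx values was not tested.

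**Figure D3:**
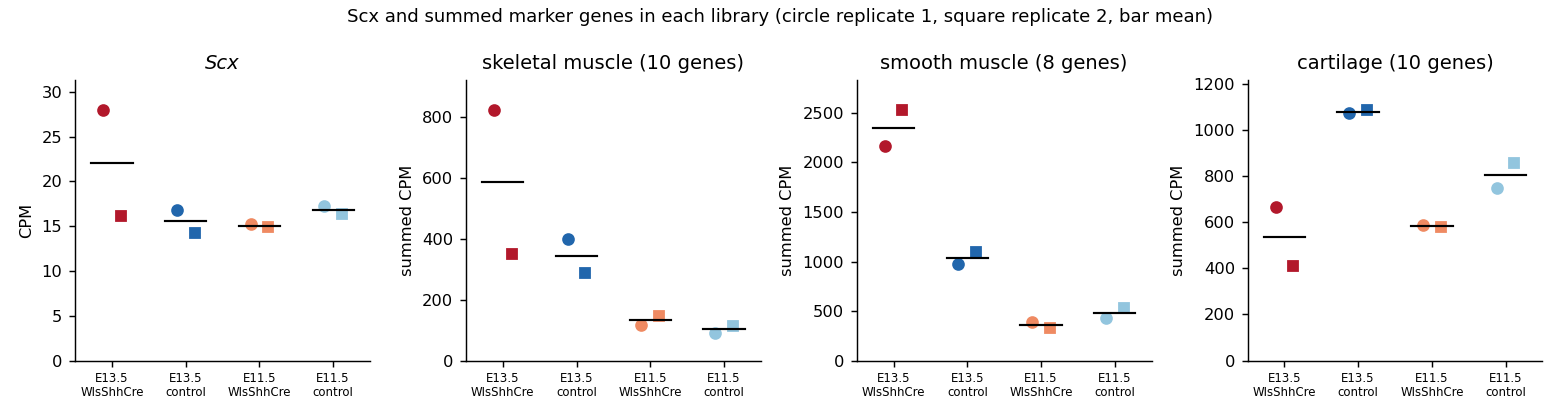
Scx level and the summed levels of skeletal muscle, smooth muscle and cartilage marker genes, in CPM, in each of the 8 libraries by group. Skeletal muscle reaches 824.2 CPM in the E13.5 WlsShhCre library that also has the highest Scx, 28 CPM.

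At E11.5 both factors were lower in every WlsShhCre library than in every control, without a call. Scx was at 15.2 and 14.9 CPM in E11.5 WlsShhCre tracheae, against 17.3 and 16.4 CPM in E11.5 controls, a log2 fold change of -0.16 (SE 0.26, adjusted p = 0.97). Mkx was at 4.78 and 4.85 CPM in E11.5 WlsShhCre tracheae, against 6.73 and 6.61 CPM in E11.5 controls, a log2 fold change of -0.47 (SE 0.27, adjusted p = 0.795). The difference between the genotype effects of the 2 stages was 0.67 for Scx (SE 0.35, adjusted p = 0.433) and 0.82 for Mkx (SE 0.39, adjusted p = 0.339). Without E13.5 mutant replicate 1 these became 0.22 for Scx (adjusted p = 0.754) and 0.28 for Mkx (adjusted p = 0.831). Without E13.5 mutant replicate 2 they became 1.02 for Scx (adjusted p = 0.00575) and 1.21 for Mkx (adjusted p = 0.0409).

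Tnmd, the marker of mature tendon cells, was higher in the mutants at E13.5. It was at 2.85 and 3.92 CPM in E13.5 WlsShhCre tracheae, which is 53 and 67 counts, against 0.843 and 1.03 CPM in E13.5 controls, which is 9 and 11 counts. Both mutant libraries lie above both controls, and only through them did Tnmd pass the filter on low counts. The rise was 3.58-fold, a log2 fold change of 1.84 (SE 0.38, 95% interval 1.02 to 2.65, adjusted p = 0.00579). The counts are low: without control replicate 1 the adjusted p was 0.0736, and DESeq2 gave 0.123. Tnmd lies on the X chromosome, and Ddx3y, a gene of the Y chromosome, was at 106 and 66.8 CPM in E13.5 WlsShhCre tracheae, against 19.8 and 48.2 CPM in E13.5 controls; the part of embryo sex was not tested. At E11.5 there were 2 and 1 counts in WlsShhCre tracheae, against 0 and 1 in controls, so no fold is given.

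Thbs4, the thrombospondin of muscle and tendon junctions, moved in the same direction as Tnmd. It was at 41.5 and 55.5 CPM in E13.5 WlsShhCre tracheae, against 26.1 and 16.3 CPM in E13.5 controls. Both mutants lie above both controls, and the part of muscle tissue in these values was not tested. The rise was 2.28-fold, a log2 fold change of 1.19 (SE 0.27, 95% interval 0.54 to 1.85, adjusted p = 0.0406). This call was lost in 6 of 8 fits that left out a library, at adjusted p from 0.0576 to 0.085, and kept without E13.5 mutant replicate 1 or E13.5 control replicate 1; without E13.5 control replicate 2 the log2 fold change was 0.89 and without E13.5 mutant replicate 2 it was 0.97. At E11.5 Thbs4 was at 3.36 and 5.38 CPM in WlsShhCre tracheae, against 4.33 and 3.35 CPM in controls, and the groups overlap (log2 fold change 0.21, SE 0.45, adjusted p = 0.983). The difference between the stages' effects was 0.98 (SE 0.52, adjusted p = 0.456).

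Thbs1 and Thbs2 fell at E13.5. Thbs1 was at 183 and 165 CPM in E13.5 WlsShhCre tracheae, against 230 and 216 CPM in E13.5 controls. Thbs2 was at 133 and 153 CPM in E13.5 WlsShhCre tracheae, against 207 and 203 CPM in E13.5 controls. In both genes each mutant library lies below each control. The log2 fold changes were -0.35 (SE 0.07, adjusted p = 0.00279) for Thbs1 and -0.52 (SE 0.07, adjusted p = 0.000258) for Thbs2. Both were called in all 15 alternative fits. Leaving out an E11.5 library keeps the E13.5 libraries compared, so these fits are not all separate checks.

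The stages differ for Thbs1. At E11.5 it was at 217 and 200 CPM in WlsShhCre tracheae, against 164 and 170 CPM in controls, so each mutant lies above each control, the reverse of E13.5. The log2 fold change of 0.32 (SE 0.07, adjusted p = 0.0756) was not called. Of 15 alternative fits, 5 called it and 10 did not, with log2 fold changes of 0.26 to 0.37. The adjusted p was 0.0188 with DESeq2, 0.0292 with edgeR on the 4 E11.5 libraries alone and 0.195 with limma-voom. The difference between the effects of the stages was itself called, at -0.67 (SE 0.09, 95% interval -0.87 to -0.47, adjusted p = 0.0013). It was the only member of 8 called in that comparison, in which 3.34% of all genes were called, 1.63% as higher and 1.7% as lower.

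Thbs2 was lower at E11.5 too. It was at 34.6 and 31.9 CPM in E11.5 WlsShhCre tracheae, against 48.1 and 45.4 CPM in E11.5 controls, with no overlap. The log2 fold change was -0.49 (SE 0.09, adjusted p = 0.0204), and the call was lost without each of the 4 E11.5 libraries, at adjusted p of 0.056 to 0.224. The difference between the stages' effects was -0.03 (SE 0.11, 95% interval -0.27 to 0.21, adjusted p = 0.949), which shows only that any difference lies within that interval.

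Among the tenascins, Tnn rose at E13.5 and Tnc was listed at 0. Tnn was at 12.9 and 13.8 CPM in E13.5 WlsShhCre tracheae, against 4.68 and 6.47 CPM in E13.5 controls. The mutants lie above both controls. The rise was 2.39-fold, a log2 fold change of 1.26 (SE 0.23, 95% interval 0.77 to 1.75, adjusted p = 0.00242). It was called in all 15 alternative fits, which are not all separate checks, at log2 fold changes of 1.05 to 1.51. At E11.5 Tnn had 1 count in each WlsShhCre library, against 2 and 0 counts in the controls, and no fold is given.

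Tnc, a tenascin abundant in developing tendon and airway mesenchyme, had 0 counts in all 8 libraries. A count of 0 allows 3 counts over a group, or up to 0.084 CPM in E13.5 WlsShhCre tracheae, 0.14 CPM in E13.5 controls, 0.142 CPM in E11.5 WlsShhCre tracheae and 0.133 CPM in E11.5 controls, for counting error only. The tables list 18445 of 37282 symbols at 0 in all libraries, which is 49.5%, and among them are all 13 mitochondrial protein genes, which every cell transcribes. Only the listing at 0 is therefore reported for Tnc.

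Periostin was lower in every mutant library at E13.5 but was not called. Postn was at 192 and 202 CPM in E13.5 WlsShhCre tracheae, against 489 and 393 CPM in E13.5 controls. The log2 fold change was -1.16 (SE 0.34, 95% interval -2.08 to -0.25, adjusted p = 0.13). Of 15 alternative fits, 6 called it and 9 did not, with log2 fold changes of -1.31 to -1. The adjusted p was 0.0207 with DESeq2, 0.00536 with limma-voom and 0.00451 with edgeR on the 4 E13.5 libraries alone. With no filter on low counts edgeR gave 0.157. The E11.5 libraries of Postn were spread widely, with 84.1 and 62.5 CPM in WlsShhCre tracheae, against 104 and 54.9 CPM in controls. They overlap, and the log2 fold change was -0.12 (SE 0.37, adjusted p = 0.99); it was 0.41 without control replicate 1. The difference between the stages' effects was -1.04 (SE 0.5, adjusted p = 0.444).

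Cartilage and smooth muscle genes also differed between genotypes at E13.5. The 10 cartilage genes summed to 664.3 and 408.4 CPM in E13.5 WlsShhCre tracheae, against 1071 and 1086 CPM in E13.5 controls; 5 of the 9 tested were lower and Matn1 was at 0 in 6 of the 8 libraries. The 8 smooth muscle genes summed to 2162 and 2531 CPM in E13.5 WlsShhCre tracheae, against 975.8 and 1098 CPM in E13.5 controls, and 6 were higher. The 8 endothelial genes summed to 325.8 and 359.5 CPM in E13.5 WlsShhCre tracheae, against 456 and 517.9 CPM in E13.5 controls, and 3 were lower. The 8 epithelial genes summed to 926.1 and 966.4 CPM in E13.5 WlsShhCre tracheae, against 638.8 and 654.2 CPM in E13.5 controls, and 6 were higher. The 5 mesothelial genes summed to 10.05 and 27.86 CPM in E13.5 WlsShhCre tracheae, against 76.48 and 34.49 CPM in E13.5 controls, with none called by edgeR and 3 at an unadjusted p under 0.05. The 8 neuronal and glial genes summed to 192.1 and 225.4 CPM in E13.5 WlsShhCre tracheae, against 250.6 and 230.2 CPM in E13.5 controls. At E11.5 the cartilage sum was also lower, with 587.9 and 577.1 CPM in WlsShhCre tracheae, against 746.9 and 856.4 CPM in controls. Smooth muscle genes, the reverse of E13.5, summed to 394.4 and 331.3 CPM in E11.5 mutants, against 431.5 and 531.2 CPM in controls. In the same order, neuronal and glial genes summed to 236.7 and 172 CPM, against 140.1 and 134.4 CPM. Skeletal muscle genes summed to 116.7 and 147.7 CPM, against 91.96 and 113.2 CPM. Mesothelial genes summed to 87.44 and 84.48 CPM, against 88.09 and 88.98 CPM. Endothelial and epithelial sums overlapped. The part of cell composition in the members' values was not tested.

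Thbs2, Thbs4 and Postn were higher at E13.5 than at E11.5 in both genotypes, and Thbs1 was lower in mutants and higher in controls. In mutants 5 of 8 tested members were higher and 1 lower, where 48.5% of all genes were called, 23.9% as higher and 24.5% as lower. In controls 6 were higher and 1 lower, where 42.4% were called, 21.4% as higher and 21% as lower. The libraries of the stages did not overlap for 7 members in each genotype, against 74.9% of all genes in mutants and 73.2% in controls. Tnmd and Tnn are among the 7 in each genotype, so that count is tied to the filter on low counts. Tnmd and Tnn passed the filter only through E13.5, so their direction was fixed by the filter; of the 6 other members tested, 3 were higher and 1 lower in mutants, and 4 were higher and 1 lower in controls. The stages come from 2 tables, in which the gene lengths implied by count and read density were the same for the 8 detected members.

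Thbs2 was higher at E13.5 in both genotypes, with log2 fold changes of 2.1 (SE 0.08, adjusted p = 6.2e-10) in WlsShhCre and 2.13 (SE 0.08, adjusted p = 5.59e-10) in controls. Thbs4 rose with log2 fold changes of 3.45 (SE 0.33, adjusted p = 0.000295) in WlsShhCre and 2.47 (SE 0.36, adjusted p = 0.00235) in controls. Postn rose with log2 fold changes of 1.43 (SE 0.36, adjusted p = 0.0335) in WlsShhCre and 2.47 (SE 0.36, adjusted p = 0.00752) in controls, and the mutant call was lost without any 1 of the 6 libraries other than the E11.5 controls, at adjusted p of 0.0599 to 0.162. In mutants Tnn had 476 counts over the E13.5 libraries against 2 at E11.5, a ratio of 141 (95% counting interval 38.8 to 1170), and in controls 119 against 2, a ratio of 62.7 (17 to 524). Tnmd had 120 against 3 counts in mutants, a ratio of 23.7 (7.92 to 117), and 20 against 1 in controls, a ratio of 21.1 (3.37 to 874). These counting intervals pool the libraries of a group and leave out the spread between replicates, so they are too narrow.

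The other members tested were Thbs1, Mkx and Scx. Thbs1 fell in WlsShhCre, with a log2 fold change of -0.26 (SE 0.07, adjusted p = 0.00566), and rose in controls, with 0.42 (SE 0.07, adjusted p = 0.000269). The fall was not called without E11.5 mutant replicate 1 (adjusted p = 0.0509) or E13.5 mutant replicate 2 (adjusted p = 0.0686). Mkx had -0.01 (SE 0.27, adjusted p = 0.975) in WlsShhCre and fell in controls, with -0.83 (SE 0.28, adjusted p = 0.0306), a call lost without any of the 4 control libraries, at adjusted p of 0.099 to 0.117, and with DESeq2 (0.0957) and limma-voom (0.0636). Scx had 0.56 (SE 0.24, adjusted p = 0.0979) in WlsShhCre and -0.12 (SE 0.25, adjusted p = 0.751) in controls. The WlsShhCre value was 0.1 (adjusted p = 0.645) without E13.5 replicate 1 and 0.9 (adjusted p = 0.000149) without E13.5 replicate 2.

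**Figure D4:**
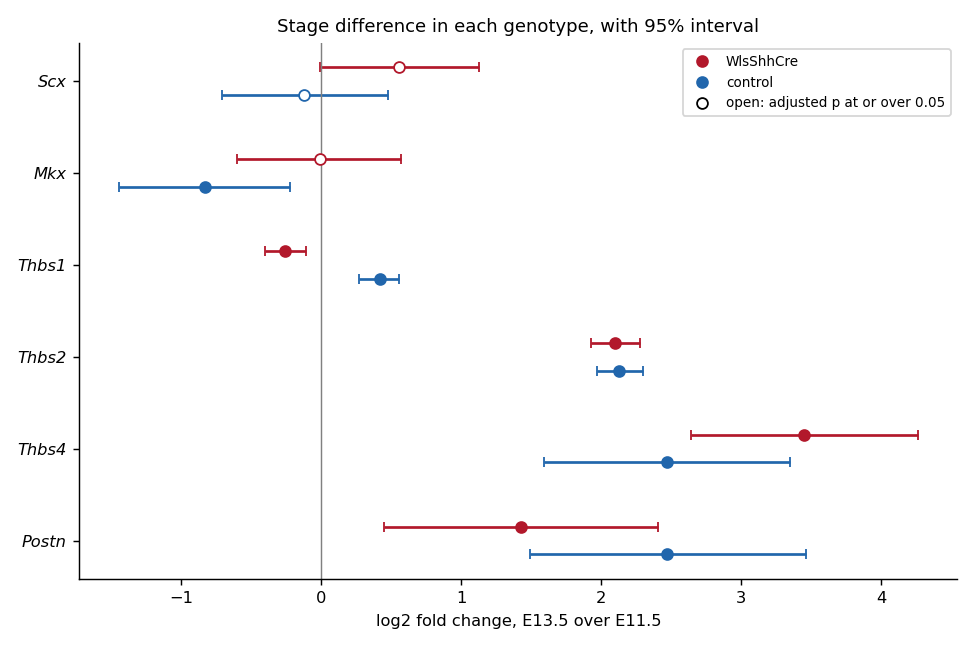
Log2 fold change of E13.5 over E11.5 for each member in WlsShhCre and in control tracheae, with 95% confidence intervals from the edgeR fit; Tnmd and Tnn, with at most 3 counts at E11.5, are left out and open points were not called. Thbs2, Thbs4 and Postn lie above 0 in both genotypes, and Thbs1 lies below 0 in WlsShhCre and above it in controls.

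Read density per length of gene model (RPKM) allows levels of different members to be ordered. In E13.5 WlsShhCre tracheae the mean RPKM was 60.6 for Postn, 30.4 for Thbs1, 24.5 for Thbs2, 19.6 for Scx, 15.4 for Thbs4, 2.6 for Tnmd, 2.33 for Tnn and 1.5 for Mkx. The replicates of Thbs2 and Scx, of Scx and Thbs4, and of Tnmd and Tnn overlapped there. In E13.5 controls the order was Postn at 135 RPKM, Thbs1 at 38.6, Thbs2 at 34.8, Scx at 13.8, Thbs4 at 6.67, Mkx at 1.17, Tnn at 0.967 and Tnmd at 0.712, with no neighbours overlapping. At E11.5 Thbs1 led with 35.6 RPKM in WlsShhCre tracheae and 28.4 RPKM in controls, followed by Postn at 22 and 23.8 RPKM; in controls the replicates of these 2 genes overlapped.

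Other tendon and fibrous matrix genes were called in both directions at E13.5. Of 33 listed, 32 were tested, 7 were higher, 6 lower and 19 not called, with a median log2 fold change of -0.01; over all genes 11.8% were called, 5.97% as higher and 5.81% as lower, with a median of 0. The number called ranged from 6 to 18 over the fits tried, which include those with a library left out. The calls over all genes also moved with the fit. Kera, a keratan sulfate proteoglycan, was at 3.98 and 5.79 CPM in E13.5 WlsShhCre tracheae, against 1.22 and 1.31 CPM in controls (log2 fold change 1.94, SE 0.38, adjusted p = 0.00422, or 0.0518 without control replicate 1). Htra3, a secreted protease, was at 30.9 and 40 CPM in the mutants, against 13.9 and 13 CPM in controls (1.4, SE 0.16, adjusted p = 1e-04). Eya1, a transcription cofactor, was at 65.4 and 47.8 CPM in the mutants, against 22.4 and 21 CPM in controls (1.38, SE 0.14, adjusted p = 9.83e-05). Gdf5, a BMP-family ligand of joints and cartilage, was at 7.04 and 7.61 CPM in the mutants, against 21.8 and 23.8 CPM in controls (-1.64, SE 0.18, adjusted p = 4.08e-05). At E11.5 edgeR called none of the 32, and neither did DESeq2 or limma-voom; 4 had an unadjusted p under 0.05, and without E11.5 control replicate 2 edgeR called 2, both lower.

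Of 21 other matricellular genes, 18 were tested; at E13.5 1 was higher and 3 were lower, with a median of -0.04, where 11.8% of all genes were called. The higher one was Smoc2, a calcium-binding matrix protein, at 220 and 213 CPM in E13.5 WlsShhCre tracheae, against 120 and 137 CPM in controls (log2 fold change 0.75, SE 0.06, adjusted p = 6.56e-06). At E11.5 Smoc2 was at 71.3 and 68.7 CPM in WlsShhCre tracheae, against 147 and 148 CPM in controls (-1.07, SE 0.07, adjusted p = 9.02e-06), the single call of the list by edgeR at that stage. DESeq2 called 2 of the list there, both lower, and edgeR without E11.5 mutant replicate 2 called 2, with 1 higher and 1 lower. The lower genes were Fbln2, an elastic fibre protein (-0.64, SE 0.12, adjusted p = 0.0127), the proteoglycan Vcan (-0.33, SE 0.08, adjusted p = 0.0157) and Sparc, which binds collagen (-0.3, SE 0.07, adjusted p = 0.0162). The call of Vcan was lost without E13.5 control replicate 2 (adjusted p = 0.153) or mutant replicate 2 (0.0777). That of Sparc was lost without mutant replicate 1 (0.156), control replicate 1 (0.142) or control replicate 2 (0.0514).

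Receptors that bind these proteins were called in both directions. All 21 were tested, with 2 higher, 3 lower and a median of 0 at E13.5, where 11.8% of all genes were called. Ptprz1, a phosphatase that binds tenascins (0.71, SE 0.12, adjusted p = 0.00136), and the syndecan Sdc4 (0.52, SE 0.11, adjusted p = 0.00646) were higher. The integrin subunit Itga4 (-0.51, SE 0.09, adjusted p = 0.00299) and the syndecan Sdc1 (-0.26, SE 0.06, adjusted p = 0.00794) were lower, as was Itgb5 (-0.25, SE 0.07, adjusted p = 0.0242), which is named after its values were seen. Without E13.5 control replicate 1 only 3 receptors were called, Sdc1 (adjusted p = 0.0703) and Itgb5 (0.0641) being lost. Without control replicate 2 Sdc4 (0.0719) and Itgb5 (0.158) were lost, and without mutant replicate 1 Sdc1 (0.0812) and Itgb5 (0.192). At E11.5 edgeR, DESeq2 and limma-voom called none of the 21; 3 had an unadjusted p under 0.05. With no filter on low counts edgeR called 1 as higher, and likewise 1 without E11.5 mutant replicate 2.

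**Figure D5:**
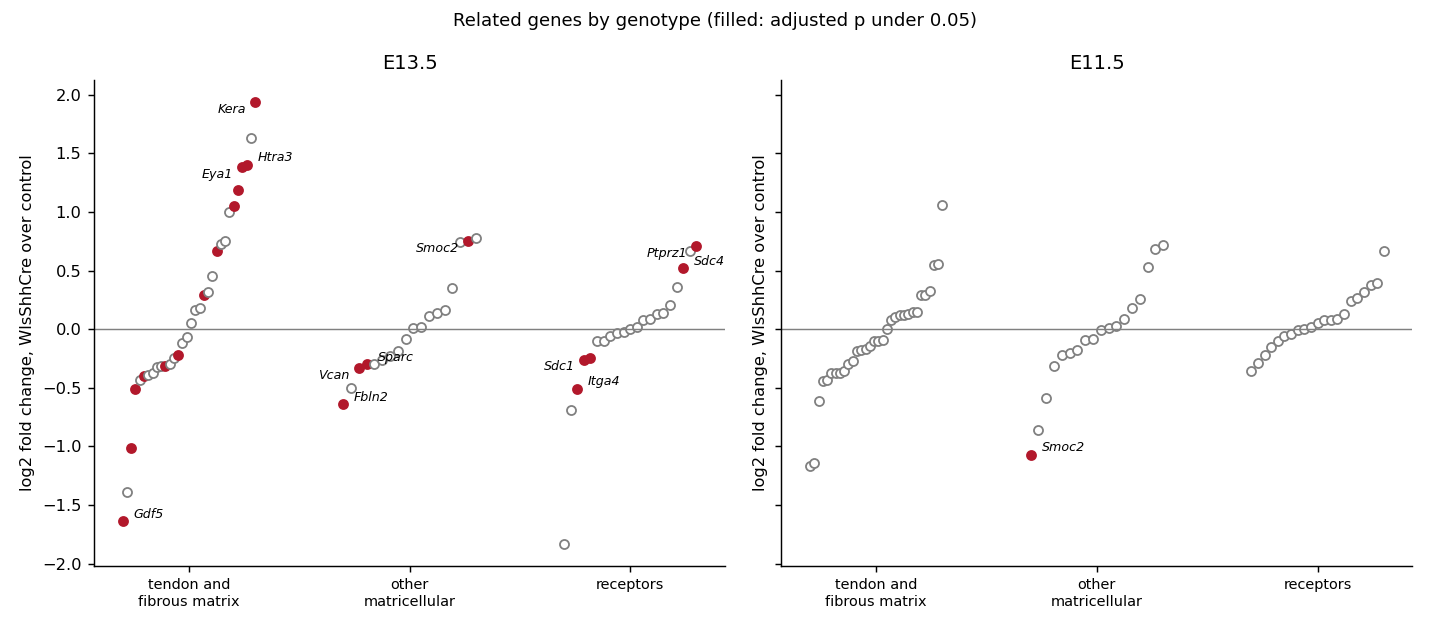
Log2 fold change of WlsShhCre over control for each gene of the 3 related lists, at E13.5 and E11.5; filled points were called. The tendon and fibrous matrix genes spread to both sides of 0 at E13.5, with a median of -0.01.

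The genes whose level across the 8 libraries was most like that of Scx were found by the root mean square difference of centred log2(CPM + 1) over 14179 tested genes. They were Actn3 with a difference of 0.096, Frmd3 with 0.118, Hdac11 with 0.128, Fstl4 with 0.142 and Baalc with 0.143. Each was highest in E13.5 WlsShhCre replicate 1, at 5.53 CPM for Actn3, 4.51 for Frmd3, 48.8 for Hdac11, 5.1 for Fstl4 and 5.16 for Baalc. In the other 7 libraries Actn3 was at 2.38 to 3.52 CPM. Adding 1 CPM shrinks the spread of genes at a few CPM more than that of Scx, at 14.3 to 28 CPM.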

How the data were processed

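RNA was extracted with Trizol from dissected tracheae and libraries were made with Nextera XT, per the labels' protocols; that kit does not mark strand. The authors deposited estimated counts (expected counts; 76.3% to 82.6% of values above 0 are not whole) and RPKM per gene, in 1 table per stage. Per the submitters' processing notes, the build was mm9 and the tools were TopHat2 2.0.8, Bowtie2 2.1.0, DESeq and Cufflinks 2.0.2; which program counted the reads was not recorded there. The deposited RPKM values served for gene order and implied lengths.

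Entries naming no gene (6 at E13.5, 2 at E11.5, 0.000985% to 0.0253% of a library's counts) were left out. Counts were summed over the 239 symbols with several entries and rounded. edgeR 4.0.16 in R 4.3.3 (filterByExpr, TMM, robust quasi-likelihood, 1 mean per group) was fitted to all 8 libraries with 4 residual degrees of freedom; the common coefficient of variation was 7.79%. In each group the replicates were further apart than counting noise (chi-square per degree of freedom 3.45 to 8.63). limma 3.58.1 and DESeq2 1.42.0 were alternatives, with RLE factors, no filter, largest entry per symbol, the replicate block, single stages and leaving out each library.

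Genes named are the 9 members, list genes called at a stage (up to 4 per list and stage by size), the 5 most like Scx, and Wls. Marker genes are given as summed CPM. The members and lists were chosen with earlier results of these data known. The scripts were checked on simulated data.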

Additional observations from a re-analysis of the deposited data

Results flagged for a closer look

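Thbs1 was picked out because its genotype effects at the 2 stages differ by a test of the difference itself. Each mutant library was below each control at E13.5 and above each control at E11.5, and the effect at E13.5 minus that at E11.5 was -0.67 on the log2 scale (edgeR adjusted p = 0.0013). Whether differences in cell composition play a part was not tested.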

How the results depend on the processing

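With 2 libraries a group, single libraries decide several calls. Of the alternatives tried for member and named-gene values, 754 kept direction and call, 44 lost the call, 17 gained it and 13 reversed. The 754 include values called in neither fit, and fits that keep the libraries compared. At E11.5, 54 genes were called: 92 with all genes kept, 90 under DESeq2, 29 by limma-voom, 90 with the replicate block and 120 on the 4 E11.5 libraries. The 1 member called became 2 without the filter, with DESeq2 and on those 4 libraries, and 0 with limma-voom. Leaving out 1 library gave, for genes and members called, 934 to 1770 and 4 to 5 at E13.5, 20 to 100 and 0 to 2 at E11.5, 279 to 675 and 1 to 3 for the interaction, 5378 to 7154 and 4 to 6 for stage in mutants, and 4461 to 6504 and 6 to 7 for stage in controls. With a library left out these log2 values changed sign, the range being given: Mkx -0.19 to 0.73 at E13.5 and -0.56 to 0.37 for stage in mutants; at E11.5 Postn -0.52 to 0.41 (and 0.08), Tnn -0.9 to 3.42 (and -0.01), Thbs4 -0.19 to 0.49; for the interaction Tnn -2.16 to 2.16, Tnmd -2.11 to 1.18 (and -0.14), Thbs2 -0.13 to 0.07 (and 0.02, 0.03). Those of Tnn and Tnmd rest on at most 3 counts a group at E11.5. The cause was not tested. Same-numbered replicates deviated together with a correlation of 0.061 at E13.5 and 0.003 at E11.5, so the numbers were not read as pairs; with the replicate block Thbs4 at E13.5 was not called (adjusted p = 0.171), and Scx (0.0499) and Postn (0.00711) at E13.5 and Scx in the stage effect in mutants (0.0111) were, and 1 tendon list gene was called at E11.5. Fbln2 was lost on the 4 E13.5 libraries (0.0902). Itgb5 was lost with DESeq2 (0.0624). Depth limits Tnmd and Tnn at E11.5.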
